A study of Mus musculus with 28 samples.

Results

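Slc17a7, Tbr1, Neurod6, Neurod2, Cux2, Rorb, Fezf2 and Emx1 are 8 genes that mark the excitatory neurons of the cerebral cortex and its layers. They are listed by name as textbook markers, and are 8 of the 29878 genes listed in the count files. All 8 passed the filter on low counts and were among the 14979 genes tested. RNA was sequenced from 4 brain regions of mice aged 2 to 3 months that were wild-type (WT), heterozygous (het) or knockout (KO) for Hdc, which encodes histidine decarboxylase, the enzyme that makes histamine. The paper describes knockout mice backcrossed to C57Bl/6, and male mice. The motor cortex had 1 WT, 2 het and 2 KO libraries, the dorsal striatum 2 WT, 3 het and 2 KO libraries, and the ventral striatum and the hypothalamus each 3 WT, 3 het and 2 KO libraries. A library is named here by the number and letter in its label, where the letter marks the region (a, ventral striatum; b, dorsal striatum; d, motor cortex; f, hypothalamus). Labels do not say whether libraries of a group came from separate animals, so p-values measure only the spread between these libraries.

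Excitatory neurons of the cortex release glutamate, which Slc17a7, the vesicular transporter VGLUT1, loads into synaptic vesicles. They arise from progenitors of the dorsal telencephalon that carry the homeobox gene Emx1, and their daughter cells take up the basic helix-loop-helix factors Neurod2 and Neurod6. Layers are then set apart by transcription factors. Tbr1 marks early-born deep-layer neurons, Fezf2 the deep-layer neurons that project below the cortex, Rorb the middle layers and Cux2 the upper layers. The spiny neurons that fill the striatum release GABA and arise from the ventral telencephalon. Glutamate neurons of the hypothalamus mostly use another vesicular transporter.

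Libraries held between 3536802 and 5150280 counts on genes (median 4392301.5). Lists of genes known to mark each tissue followed the labels. The 12 genes of the striatal spiny neuron list summed to 8910 to 12534 CPM (counts per 1000000 counts on genes after TMM scaling) in the dorsal striatum and 2258 to 4974 in the ventral striatum, against 275 to 399 in the other regions. The 11 hypothalamic genes summed to 476 to 646 CPM in the hypothalamus and to at most 79.4 elsewhere. Hdc was between 0 and 1.61 CPM in WT libraries outside the hypothalamus, between 4.17 and 6.72 in het and between 7.83 and 12.9 in KO libraries there. In the hypothalamus, where histamine neurons lie, it was 15.3 to 19.1 CPM in WT and 11.7 to 14.2 in KO libraries. Hdc reads thus separated the genotypes outside the hypothalamus without showing a loss, and whether the counted exons lie outside the deleted part was not analysed here. Library 8b, KO dorsal striatum, stood apart in 8 choroid plexus genes, which summed to 2863 CPM against 3.60 to 81.8 in the other 27 libraries.

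The 250 bases before the RefSeq start (GRCm38.p6) are shown for the 4 members whose log2 CPM was most alike over the 7 dorsal striatum libraries (r of 0.94 to 0.98 with the mean of the other members). The windows are chr7:45163671-45163920 (+ strand) for Slc17a7, chr2:61804203-61804452 (+) for Tbr1, chr6:55681264-55681513 (-) for Neurod6 and chr11:98329646-98329895 (-) for Neurod2. The Tbr1 window lies within an exon of Tbr1-204, a transcript without a coding sequence in GENCODE M21, and 3 bases of the Neurod2 window overlap its first annotated exon. Capitals mark CAGATG, the E-box form bound by NeuroD factors, TAATTA, a homeodomain core, or AGGTGT, a T-box half-site, on either strand.
Slc17a7: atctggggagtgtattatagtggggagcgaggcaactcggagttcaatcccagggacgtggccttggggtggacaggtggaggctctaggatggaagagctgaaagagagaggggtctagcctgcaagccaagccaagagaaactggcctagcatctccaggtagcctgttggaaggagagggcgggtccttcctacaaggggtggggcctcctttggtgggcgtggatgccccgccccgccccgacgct
Tbr1: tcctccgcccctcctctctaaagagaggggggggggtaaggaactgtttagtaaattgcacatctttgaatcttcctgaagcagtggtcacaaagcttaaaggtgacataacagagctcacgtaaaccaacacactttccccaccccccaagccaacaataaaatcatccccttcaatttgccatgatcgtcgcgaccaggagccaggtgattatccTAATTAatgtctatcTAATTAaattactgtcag
Neurod6: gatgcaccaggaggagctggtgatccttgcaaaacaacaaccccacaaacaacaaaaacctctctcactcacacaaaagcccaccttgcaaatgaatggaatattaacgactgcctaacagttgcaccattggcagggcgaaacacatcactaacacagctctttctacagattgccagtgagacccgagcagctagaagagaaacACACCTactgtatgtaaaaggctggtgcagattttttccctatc
Neurod2: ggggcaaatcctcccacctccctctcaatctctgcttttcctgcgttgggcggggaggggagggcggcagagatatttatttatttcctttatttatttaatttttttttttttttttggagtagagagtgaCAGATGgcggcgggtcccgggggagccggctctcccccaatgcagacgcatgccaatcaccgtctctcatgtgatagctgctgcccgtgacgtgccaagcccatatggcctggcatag
CAGATG is 1 form of the wider E-box CANNTG, so both can match the same bases. In windows of 250 bases at 32851 promoters, CAGATG was present in 14.4%, TAATTA in 4.84%, AGGTGT in 11.8% and CANNTG in 66.2%. Over the 8 members, with 10 windows in all, CAGATG was present in a window of Neurod2 and of Cux2, TAATTA in that of Tbr1 and AGGTGT in that of Neurod6. CANNTG was present in 7 of the 8 members, and AGGTCA, a nuclear receptor half-site present in 14% of promoters, in none of them. These matches are letters in a window and were not tested for binding.

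All 8 members were higher in the motor cortex than in the dorsal striatum, the ventral striatum and the hypothalamus. Over all genes tested, 22%, 21.5% and 22.9% were called higher in the motor cortex in the same 3 comparisons. Slc17a7 was 1111 CPM in the WT motor cortex library, 1185 and 1052 in the het libraries, and 1040 and 1072 in the KO libraries. It was between 1.84 and 178 CPM (median 5.09) in 7 dorsal striatum libraries, between 2.13 and 8.37 (median 4.62) in 8 ventral striatum libraries, and between 10.2 and 198 (median 22.7) in 8 hypothalamus libraries. No library of another region came near the motor cortex level. The log2 fold change of Slc17a7 (edgeR likelihood ratio test, mean over genotypes) was 5.51 ± 0.57 (SE) against the dorsal striatum (adjusted p = 2.43e-16), 8.06 ± 0.57 against the ventral striatum (adjusted p = 6.81e-28) and 4.76 ± 0.56 against the hypothalamus (adjusted p = 2.56e-14). In bulk tissue, fewer cells of a type and less RNA per cell cannot be told apart.

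Tbr1 was 336 CPM in the WT motor cortex library, 375 and 324 in het and 250 and 314 in KO libraries. Its median was 2.10 CPM in the dorsal striatum, 8.67 in the ventral striatum and 9.35 in the hypothalamus, and the log2 fold changes were 5.14 ± 0.55, 4.83 ± 0.53 and 4.57 ± 0.53 (SE). Neurod6, which marks maturing and adult pyramidal neurons, was 67.1 to 95.4 CPM in the motor cortex, with medians of 1.22, 0.49 and 1.33 CPM in the dorsal striatum, ventral striatum and hypothalamus. Neurod2, its close relative, was 98.5 to 123 CPM in the motor cortex and had medians of 0.79, 0.37 and 1.55 CPM in the same order. Both factors were thus at a few reads in most libraries outside the cortex. Neurod2 had no counts in 4 of the 23 libraries there, 1b, 2a, 3a and 8a.

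Fezf2 was 29.6 to 45.4 CPM in the motor cortex and at most 6.87 CPM elsewhere, with log2 fold changes of 3.92 ± 0.31, 5.08 ± 0.36 and 4.07 ± 0.30 (SE) against the dorsal striatum, ventral striatum and hypothalamus. Emx1 was low even in the motor cortex, 1.44 CPM in the WT library, 2.41 and 4.11 in het and 3.36 and 4.32 in KO libraries. It had 63 counts over the 5 motor cortex libraries, 3 counts over 7 dorsal striatum libraries, 1 over 8 ventral striatum libraries and 3 over 8 hypothalamus libraries. Relative to total counts, the motor cortex level was 32.1 times that of the dorsal striatum (95% exact interval 10.5 to 160), 99.1 times that of the ventral striatum (17.1 to 3974) and 36.5 times that of the hypothalamus (11.9 to 182). These intervals cover counting error only.

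Cux2 and Rorb behaved otherwise, since both had clear levels in every region. Cux2 was 82.9 to 183 CPM in the motor cortex, 57.6 to 80.6 in the hypothalamus, 40.1 to 50.1 in the ventral striatum and 9.59 to 24.8 in the dorsal striatum. These 4 ranges did not overlap. Its log2 fold change in the motor cortex was 2.87 ± 0.14 (SE) against the dorsal striatum, 1.41 ± 0.13 against the ventral striatum and 0.86 ± 0.13 against the hypothalamus (adjusted p = 3.13e-11). Rorb was 175 to 249 CPM in the motor cortex, 113 to 193 in the hypothalamus, 66.4 to 107 in the dorsal striatum and 64.3 to 77.3 in the ventral striatum. Its motor cortex and hypothalamus ranges overlapped, and its log2 fold change between them was 0.53 ± 0.13 (adjusted p = 8.18e-05).

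**Figure D1:**
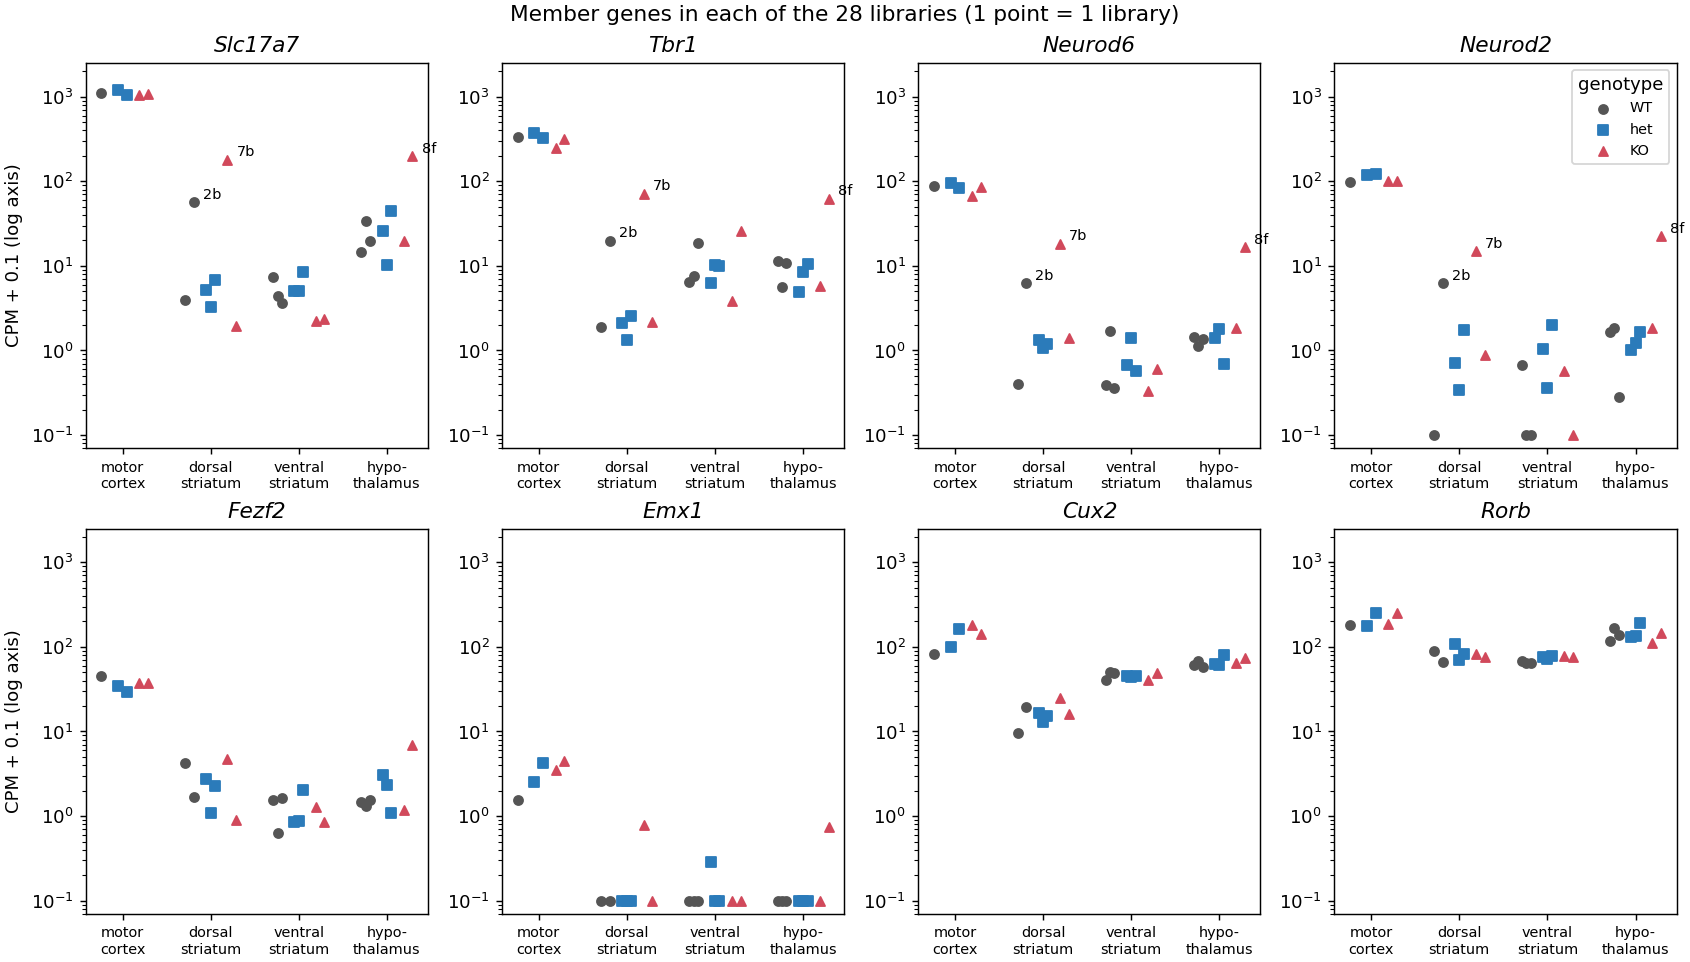
CPM of each member, with 0.1 added, on a log axis for each of the 28 libraries by region. Grey circles are WT, blue squares het and red triangles KO, and 1 point is 1 library. Slc17a7, Neurod6 and Neurod2 are highest in the 5 motor cortex libraries and next highest in 7b and 2b (dorsal striatum) and 8f (hypothalamus), Tbr1 is also raised in 3a and 8a (ventral striatum, 18.7 and 26.0 CPM), and Cux2 and Rorb are present in all 4 regions.

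Over the members, the median log2 fold change of the motor cortex was 4.29 against the dorsal striatum, 4.96 against the ventral striatum and 4.32 against the hypothalamus, with Emx1 set at the lower end of its interval. Over all genes tested, the same medians were -0.03, -0.04 and -0.05. Scaling by library size alone moved the median of all genes by more than 0.1 in several comparisons, to -0.28 between the motor cortex and the hypothalamus, and all 8 members were still called higher there. Per kilobase of exon, the order of the mean levels in the motor cortex was Slc17a7 (203 ± 10.8 CPM per kb, SD, n = 5), Tbr1 (58.3 ± 8.26), Neurod6 (38.8 ± 4.80), Neurod2 (34.6 ± 3.55), Rorb (18.8 ± 3.42), Cux2 (13.3 ± 4.18), Fezf2 (12.1 ± 1.89) and Emx1 (1.43 ± 0.55). Neurod6 and Neurod2 did not differ beyond their spread in this order, nor did Cux2 and its neighbours Rorb and Fezf2.

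A list of 28 other cortical genes, from all layers, the upper layers and the deep layers, gave the wider picture. Against the dorsal striatum, 19 of the 28 rose in the motor cortex and 4 fell, with a median log2 fold change of 1.25. Against the ventral striatum 18 rose and 5 fell (median 1.04), and against the hypothalamus 17 rose and 4 fell (median 0.67). Of the 10 genes of all layers, 9, 10 and 10 rose in these comparisons. Of the 7 upper-layer genes 4, 3 and 2 rose and 1, 1 and 2 fell (medians 0.76, 0.53 and -0.32). Of the 11 deep-layer genes 6, 5 and 5 rose and 3, 4 and 2 fell (medians 0.68, 0.06 and 0.23). Over all genes tested, 22%, 21.5% and 22.9% were called higher. Syt6 fell in the motor cortex by 2.79 on the log2 scale against the dorsal striatum, and Crym, a thyroid hormone binding protein, fell by 2.47. Both genes, like Cux2 and Rorb, were thus also expressed outside the cortex.

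Outside the cortex, Slc17a7, Tbr1, Neurod6 and Neurod2 did not follow the region alone. In the dorsal striatum, Slc17a7 was 3.90 and 56.4 CPM in the WT libraries (1b, 2b), 5.09, 3.19 and 6.80 in the het libraries (4b, 5b, 6b) and 178 and 1.84 in the KO libraries (7b, 8b). Tbr1 was 1.80 and 19.7 CPM in WT, 2.04, 1.23 and 2.45 in het, and 70.6 and 2.10 in KO libraries, in the same order. Libraries 7b and 2b were high and the other 5 were low, and the high libraries belonged to different genotypes. Neurod6 was 18.2 CPM in 7b and 6.12 in 2b, against 0.30 to 1.31 in the other 5, and Neurod2 was 14.7 and 6.12 CPM against 0 to 1.63.

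In the hypothalamus, library 8f (KO) stood apart in the same genes. Slc17a7 was 198 CPM there against 10.2 to 44.8 in the other 7 libraries, Tbr1 62.1 against 4.81 to 11.4, Neurod6 16.5 against 0.58 to 1.73, and Neurod2 22.3 against 0.18 to 1.73. Fezf2 was 6.87 CPM in 8f against 0.97 to 2.96. Emx1 had 3 counts in 8f and no counts in the other 7 libraries. Likewise, all 3 Emx1 counts of the dorsal striatum were in 7b. The other KO library of each region, 8b and 7f, lay within or below the range of the WT and het libraries in Slc17a7 and Tbr1. In Neurod6 and Neurod2, 8b lay within that range. Library 7f, at 1.73 CPM (8 counts) in both genes, was just above the highest WT or het library (1.67 and 1.72 CPM).

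The levels in these libraries can be read as shares of the motor cortex mean. In 8f they were 18.1% for Slc17a7, 19.4% for Tbr1, 19.8% for Neurod6, 20.6% for Neurod2, 18.6% for Fezf2 and 20.6% for Emx1. In 7b they were 16.3% for Slc17a7, 22.1% for Tbr1, 21.8% for Neurod6, 13.6% for Neurod2 and 12.5% for Fezf2, and the 3 counts of Emx1 gave 22.1%. In 2b Slc17a7, Tbr1, Neurod6 and Neurod2 were at 5.16%, 6.16%, 7.33% and 5.63%. Fezf2 was not raised in 2b, at 1.59 CPM against 0.79 to 4.19 in the other 5, and Emx1 had no counts there. In 8f Cux2 and Rorb were higher than these shares, at 55.1% and 70.1%. In 7b Cux2 was at 18.5% and Rorb at 40.0%, and in 2b they were at 14.4% and 32.0%. In the remaining libraries of both regions, Slc17a7 was on average 0.38% of the motor cortex mean in the dorsal striatum and 2.199% in the hypothalamus, and Tbr1 0.60% and 2.54%.

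**Figure D2:**
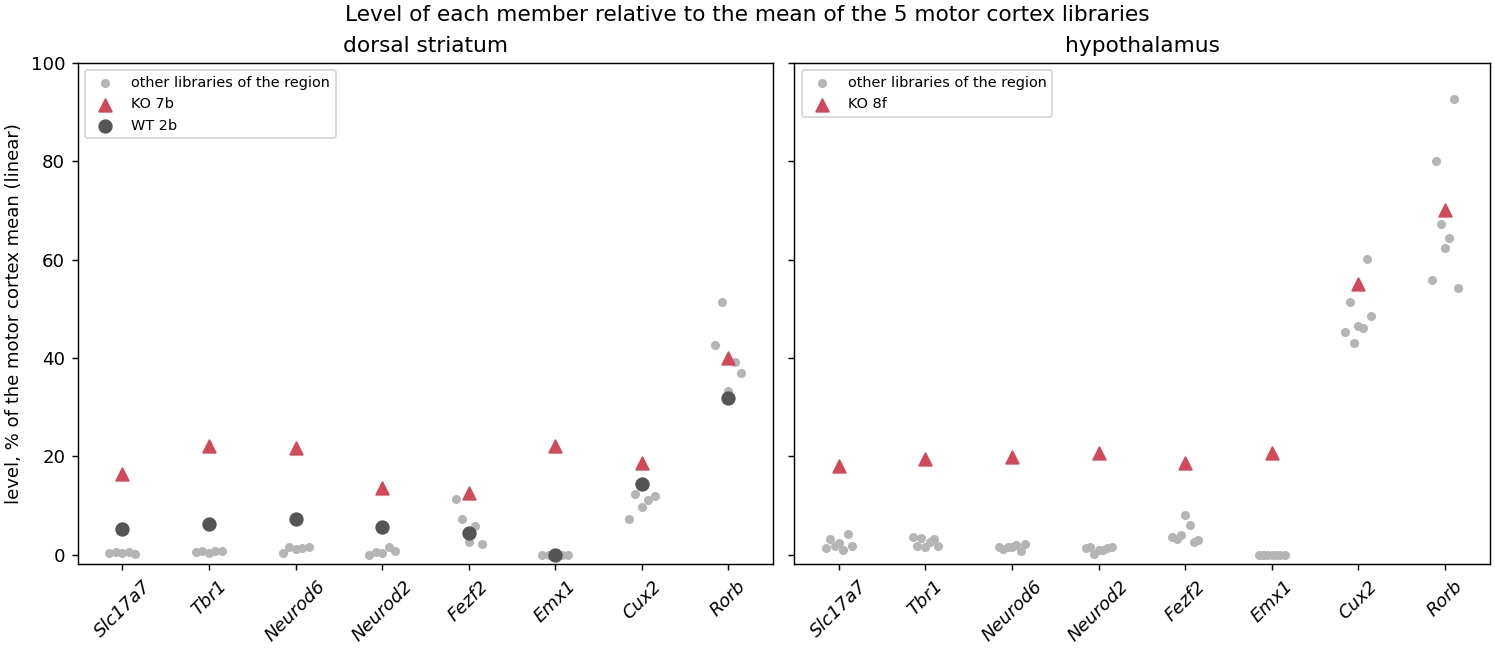
Level of each member as a percentage of the mean of the 5 motor cortex libraries, on a linear axis, in the dorsal striatum (left) and hypothalamus (right). Coloured points are libraries 7b, 2b and 8f and small grey points the other libraries of the region. In 8f, 6 members lie between 18.1% and 20.6%, while Cux2 and Rorb are within the range of the other hypothalamus libraries.

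Cux2 and Rorb did not stand apart in the same way. Cux2 was 24.8 CPM in 7b and 19.3 in 2b, above the 9.59 to 16.5 of the other 5 dorsal striatum libraries, but it was 73.9 in 8f against 57.6 to 80.6 in the other 7 hypothalamus libraries. Rorb was 83.0 CPM in 7b, 66.4 in 2b and 146 in 8f, none of them above the highest of the other libraries. Over the median of the other 7, the rise in 8f was 8.58% of the motor cortex mean for Cux2 and 5.71% for Rorb. For the other 6 members it was 15.0% to 20.6%. The other 7 libraries already ran from 43.0% to 60.2% for Cux2 and from 54.2% to 92.7% for Rorb. A rise like that of the other members could lie within this spread. In all, 7 of the 8 members in 7b lay above each of the other 5 dorsal striatum libraries, against 15.5% of all genes tested, and 4 lay more than 2-fold above, against 0.521%. In 2b the counts were 5 and 4 members, against 14.4% and 0.174% of all genes, and in 8f, with 7 other libraries, 6 and 5 members, against 17.6% and 0.521%. These libraries were singled out after the members' values were seen, so the counts are a description.

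Of the 28 other cortical genes, 14 lay above every other library compared in 7b, 9 in 2b and 14 in 8f, against the 15.5%, 14.4% and 17.6% of all genes. Of the 10 genes of all layers, 8, 6 and 9 did so. Of the 7 upper-layer genes it was 2, 1 and 3, and of the 11 deep-layer genes 4, 2 and 2, so that the upper-layer share in 2b (14.3%) and the deep-layer shares in 2b and 8f (18.2%) were near those of all genes. Nr4a2, an orphan nuclear receptor that marks the claustrum, the endopiriform nucleus and deep cortical cells, was 76.8 CPM in 7b and 26.1 in 2b against 0.54 to 2.40 in the other 5, and the motor cortex libraries had 8.28 to 21.1. Ntng2, an axon guidance molecule of the netrin family, was 16.1 CPM in 7b and 6.12 in 2b against 1.80 to 3.46. Cplx3, which marks the deepest cortical layer, was 15.2 CPM in 7b against 0.27 to 2.04 in those 5 and 7.29 to 28.1 in the motor cortex. In 7b, Rprm (2.53 CPM against at most 1.96), Ntsr1 (3.91 against at most 1.90) and Nxph4 (2.07 against at most 1.90) were also above those 5. Crym, at 25.1 CPM against 29.4 to 105, and Parm1, at 65.8 against 71.5 to 96.2, were below them. The 11 deep-layer genes summed to 539 CPM in 7b, within the 517 to 580 of the region. Tle4 and Syt6 gave 177 and 147 CPM of that sum, while their motor cortex means were 78.1 and 22.3 CPM. Crym averaged 9.39 CPM in the motor cortex, below each dorsal striatum library.

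In 8f, Nr4a2 was 21.5 CPM, within the 14.9 to 33.7 of the other hypothalamus libraries. Lamp5, a membrane protein of upper-layer and some inhibitory neurons, was 53.5 CPM in 8f against at most 16.7 in the other 7, while in 7b it was 103 CPM, within the 90.6 to 150 of the other 5 dorsal striatum libraries. The 4 genes of the claustrum and endopiriform list summed to 167 CPM in 7b and 107 in 2b. In the other dorsal striatum libraries they summed to 52.7 to 76.2 CPM, in the motor cortex to 48.1 to 69.4 and in the ventral striatum to 83.7 to 113. In 8f they summed to 72.8 CPM, within the range of the hypothalamus (58.9 to 86.6). Gnb4 was 55.0 CPM in 7b and 55.5 in 2b against 30.6 to 54.0 in the other 5 dorsal striatum libraries. Lxn, at 19.3 and 19.5 CPM, lay within their 16.3 to 22.3. Nr4a2 in 7b was thus above each motor cortex library, while each of the 8 members there was below.

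**Figure D3:**
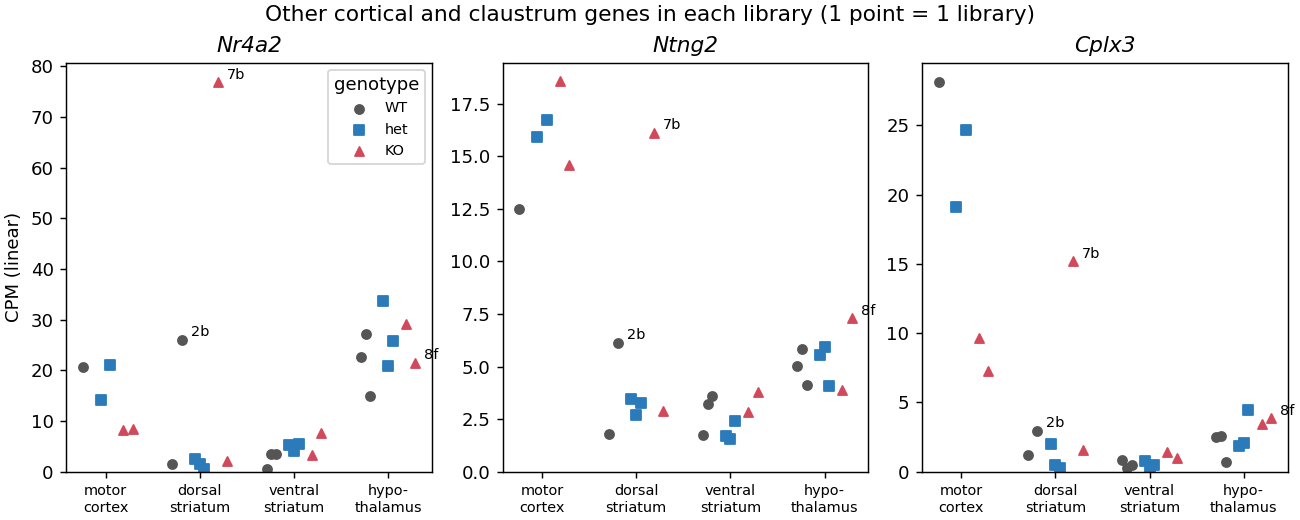
CPM on a linear axis of Nr4a2, Ntng2 and Cplx3 in each of the 28 libraries by region. Grey circles are WT, blue squares het and red triangles KO. Nr4a2 is raised in 7b (76.8 CPM) and 2b (26.1 CPM) but not in 8f.

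Lists of other cell types were read in the same libraries. None of the 12 spiny neuron genes lay above the other 5 dorsal striatum libraries in 7b, and their sum there, 10409 CPM, was inside the range of the region. None of the 12 oligodendrocyte, 7 astrocyte or 5 microglia genes did so in 7b, while 1 of 8 interneuron and 2 of 5 endothelial genes did. In 8f the 11 hypothalamic genes summed to 476 CPM, the lowest of the 8 hypothalamus libraries, and the spiny neuron genes to 365 CPM, also the lowest. The 7 astrocyte genes summed to 4752 CPM in 8f, above the 3529 to 4367 of the other 7 libraries, and the 8 interneuron genes to 886 CPM, above 727 to 853. Above every other hypothalamus library in 8f were 1 of 7 astrocyte, 1 of 8 interneuron, 1 of 5 microglia and 2 of 8 choroid plexus genes, and none of the oligodendrocyte or endothelial genes. In 2b, 1 of 12 spiny neuron, 2 of 8 interneuron, 1 of 7 astrocyte and 1 of 5 endothelial genes lay above the other 5 libraries. The part of other cell types or tissue in the member levels of 7b, 2b and 8f was not tested.

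The comparisons between the other regions depended on these 3 libraries. These were singled out after the members' values were seen, so fits without them only describe the libraries left. With all libraries, 4 members were higher in the dorsal than the ventral striatum, against 14.6% of all genes tested, and 1 was lower, against 14.4%. Slc17a7 was higher by 2.55 ± 0.52 on the log2 scale (SE), Neurod6 by 2.43 ± 0.55, Neurod2 by 2.80 ± 0.72 and Fezf2 by 1.16 ± 0.38, and Cux2 fell by 1.46 (SE 0.13). Without 7b, 2b and 8f, none of the first 4 was called, and 2 members, Cux2 (-1.78 ± 0.16, SE) and Tbr1 (-2.52 ± 0.40), were lower in the dorsal striatum, where 11.9% of all genes were. Slc17a7 was then -0.30 ± 0.36 (adjusted p = 0.62). Cux2 was called lower in both fits.

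Against the hypothalamus, 2 members, Cux2 and Rorb, were lower in the dorsal striatum (30.7% of all genes were), and 6 were lower in the ventral striatum (23.9% of all genes were), all but Tbr1 and Emx1. Without the 3 libraries the first count became 5 of 8 (26.3% of all genes), with Slc17a7 lower by -2.78 ± 0.34 (SE), Tbr1 by -1.93 ± 0.42 and Neurod2 also past the threshold (adjusted p = 0.00670). The second count became 5 (21.8% of all genes). In the 7 hypothalamus libraries without 8f, Slc17a7 had a mean of 24.0 CPM. The dorsal striatum without 7b and 2b had 4.16 CPM and the ventral striatum 4.72. With all libraries the hypothalamus mean was 45.7 CPM and that of the dorsal striatum 36.5, and Slc17a7 was not called between them. The 3 libraries were left out for their own high member values, so these differences are a description. All 8 members were higher in the motor cortex than in each region also without the 3 libraries. Slc17a7 was then higher than in the dorsal striatum by 8.36 ± 0.35 and Tbr1 by 7.36 ± 0.41 on the log2 scale. Leaving out libraries with high member values could only widen this difference for the members raised in them.

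Genotype was compared within each region, as KO with WT, het with WT and KO with het, and 3 further tests compared the KO effect of the dorsal striatum with that of each other region. Of these 15 tests, 2 called any member. In the dorsal striatum, 3 members were higher in KO than in het libraries, against 0.334% of all genes tested. In either direction, 0.454% of all genes were called. The 3 members were Slc17a7 (4.16 ± 0.87 on the log2 scale, SE, adjusted p = 0.00458), Tbr1 (4.24 ± 0.86, adjusted p = 0.00271) and Neurod6 (3.12 ± 0.79, adjusted p = 0.0171). Library 8b, the other KO library, lay within or below the range of the het libraries in Slc17a7 and Tbr1. In Neurod6, 8b was at 1.31 CPM (5 counts), just above the 0.98 to 1.22 of the het libraries. Without 7b, which leaves 1 KO library whose spread is taken from the other groups, no member was called, and the log2 fold change of Slc17a7 was -1.44 (adjusted p = 0.867) and that of Tbr1 0.14 (adjusted p = 0.993). No member was called without the het library 5b either, and 1 was without 4b. The quasi-likelihood test of edgeR and DESeq2 called 0 members, and 6 had an unadjusted p under 0.05 in the likelihood ratio test.

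In the hypothalamus, Neurod6 was higher in KO than in het libraries (2.91 ± 0.76, SE, adjusted p = 0.0435), where 0.22% of all genes were called higher and 0.234% in either direction. Without 8f, which leaves 1 KO library, no member was called, and the value of Neurod6 was 0.53 (adjusted p = 1.00). No member was called either without any 1 of the het libraries 4f, 5f and 6f. The quasi-likelihood test and DESeq2 called 0 members. KO against WT in the hypothalamus called 0 members, against 0.167% of all genes in either direction, with 6 members at an unadjusted p under 0.05 and Neurod6 closest to the threshold (2.89 ± 0.76, adjusted p = 0.0562). Both other tools called 0 there.

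KO against WT in the dorsal striatum, the contrast on which the study centred, called 0 members with the likelihood ratio test, the quasi-likelihood test and DESeq2, against 0.387% of all genes. Only Emx1 had an unadjusted p under 0.05. Both genotypes held 1 high and 1 low library, and the log2 fold changes were 1.58 ± 0.94 (SE) for Slc17a7, 1.75 ± 0.90 for Tbr1, 1.56 ± 0.80 for Neurod6 and 1.31 ± 0.97 for Neurod2. Cux2 was 0.48 ± 0.27, Rorb 0.05 ± 0.22 and Fezf2 -0.02 ± 0.61. Without 7b, the log2 fold change of Slc17a7 was -4.02 (adjusted p = 0.0427), where 8b is the only KO library, the WT group holds 2b and the spread is that of the other groups. Without 7b, 2b and 8f it was -1.07 ± 0.85 (adjusted p = 0.76), with 1 library in each group. The other 11 tests called 0 members by all 3 tools. The shares of all genes called were 0.0801% for KO against WT, 0.0534% for het against WT and 0.0467% for KO against het in the ventral striatum, and 0.0334%, 0.0134% and 0.00668% in the motor cortex. They were 0.0868% for het against WT in the dorsal striatum and 0.0935% in the hypothalamus. For the KO effect of the dorsal striatum against that of the ventral striatum, motor cortex and hypothalamus they were 0.00668%, 0.127% and 0.154%. These 11 tests had 0 to 4 members at an unadjusted p under 0.05. The 4 were Slc17a7, Tbr1, Neurod6 and Neurod2 in het against WT dorsal striatum, where the WT group holds 2b. Of the 28 other cortical genes, 1 was called there. Rasgrf2, an exchange factor for Ras that marks upper layers, was 9.29 and 22.2 CPM in the WT libraries and 33.6, 30.6 and 46.8 in the het libraries, which did not overlap (1.20 ± 0.27 on the log2 scale, SE, adjusted p = 0.034).

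The calls over all genes also changed when 1 of these libraries was left out. Each of these fits leaves 1 library in a group, and the spread is that of the other groups. In KO against WT dorsal striatum 58 genes were called with all libraries, and 53 of them were higher in KO. Of these 53, 5 came from the choroid plexus list, and 0 were more than 2-fold above every other library in 7b. Without 7b the KO group is 8b alone, the library with 2863 CPM of choroid plexus genes. Without 2b the WT group is 1b alone. Of 50 genes called higher in KO than het dorsal striatum, 21 were more than 2-fold above every other dorsal striatum library in 7b, and for 20 of these the motor cortex mean was also more than 2-fold above those other libraries, as it was for 4.81% of all genes. Besides the 3 members, they included Nrn1, Nptx1 and Cplx3 from the list of other cortical genes. Without 7b, 62 genes were called in either direction instead of 68, and 27 of the 68 were shared. In the hypothalamus, 35 genes were called between KO and het and 0 without 8f, and 25 between KO and WT and 3 without 8f. Of the 33 genes called higher in KO than het hypothalamus, 19 were more than 2-fold above every other hypothalamus library in 8f. All 19 had a motor cortex mean more than 2-fold above those other libraries, as did 4.79% of all genes. Mef2c, a transcription factor of maturing excitatory neurons, was 164 CPM in 8f against 30.5 to 43.6 in the other 7, and Itpka, a kinase of dendritic spines, 10.3 against 0.58 to 3.22.

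The 12 oligodendrocyte genes, which make or maintain myelin, had positive log2 fold changes in KO against WT dorsal striatum in all 12 cases, 4 of them called, with a median of 0.74. The mean log2 CPM of the members in the dorsal striatum was then added to the model as a covariate. In this fit 6 of the 12 were called, the median was 0.79 and all 12 were positive. Over all genes the calls went from 58 to 93, with 51 shared. The 12 oligodendrocyte genes summed to 2939 CPM in 7b and 3772 in 8b (KO), 2163 in 1b and 1931 in 2b (WT), and 2760 to 2918 in the het libraries. The slope of the covariate rests on differences between dorsal striatum libraries of the same genotype, largest between 7b and 8b (mean log2 CPM 4.42 and 1.65). Library 8b also stood apart in choroid plexus genes (2863 CPM) and had the highest oligodendrocyte sum of the region. The covariate fit cannot tell these differences between 7b and 8b apart. The part of the member levels in the oligodendrocyte sums was not tested. Only 2 KO and 2 WT libraries entered this comparison.

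Within the motor cortex, Cux2 varied most among the members other than Emx1, from 82.9 CPM in 2d (WT) through 99.0 in 5d (het), 143 in 8d (KO) and 162 in 6d (het) to 183 in 7d (KO). The 7 other upper-layer genes summed to 537, 619, 675, 806 and 893 CPM in the same order of libraries, and the 11 other deep-layer genes to 503, 459, 440, 428 and 393 CPM. The first sum thus rose along the order of Cux2 and the second fell. The 12 oligodendrocyte genes summed to 1653, 1655, 1159, 1411 and 954 CPM in this order, and all 12 had negative log2 fold changes in KO against WT motor cortex, with 0 called and a median of -0.63. Their part in the order was not tested. Rorb did not follow it, at 179, 175, 249, 249 and 187 CPM. Fezf2, which marks deep layers, did not fall steadily along it, at 45.4, 34.5, 37.0, 29.6 and 37.8 CPM. Tbr1 was highest in 5d (375 CPM) and lowest in 7d (250), and Slc17a7 stayed between 1040 and 1185 CPM. The KO libraries lay at both the third and the last place of this order, on either side of a het library. Cux2 was higher in KO than WT by 0.98 ± 0.26 on the log2 scale (SE), which did not pass the threshold over all genes (adjusted p = 0.322), and the WT group was 1 library. No member was called between genotypes in the motor cortex, where 0.0334% of all genes were called between KO and WT.

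**Figure D4:**
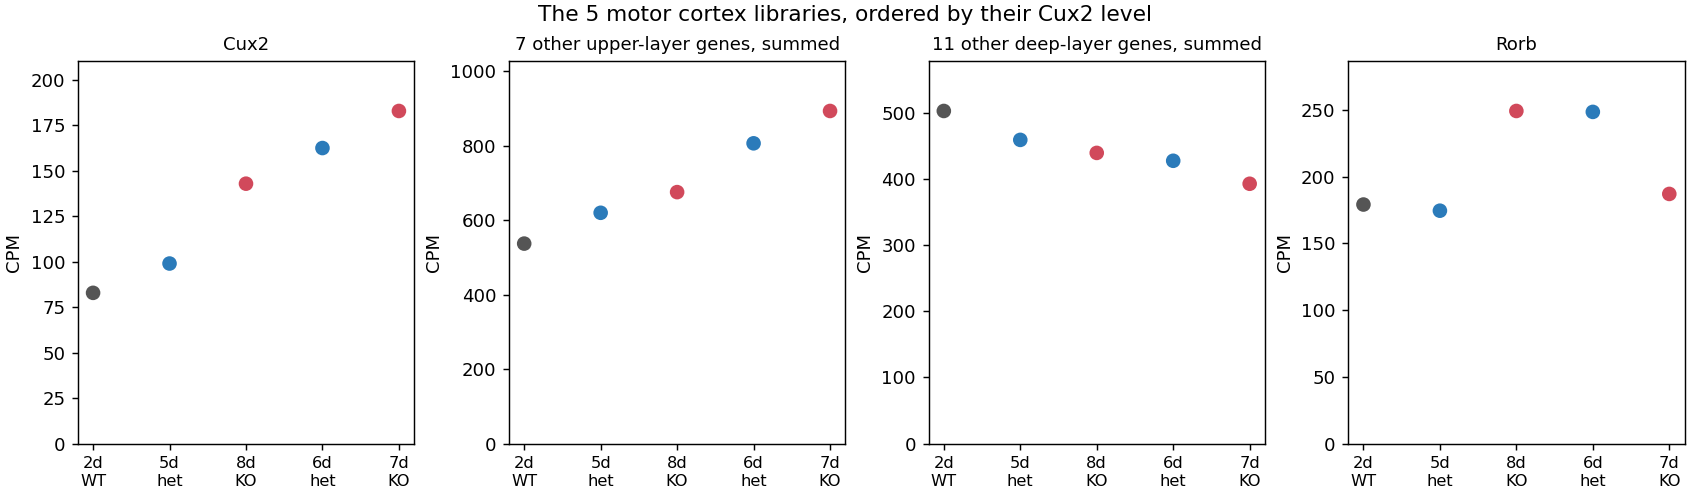
The 5 motor cortex libraries in the order of their Cux2 level, with CPM on linear axes from 0 for Cux2, the sums of 7 other upper-layer and 11 other deep-layer genes, and Rorb. Grey is WT, blue het and red KO. The upper-layer sum goes from 537 to 893 CPM and the deep-layer sum from 503 to 393 CPM along the order, while Rorb does not follow it.

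In the ventral striatum the members did not move together. Tbr1 was 18.7 CPM in 3a (WT) and 26.0 in 8a (KO) against 3.78 to 10.2 in the other 6 libraries, while Slc17a7 in these libraries was 3.59 and 2.28 CPM and Neurod2 had no counts in either. The spiny neuron genes summed to 2570 CPM in 3a and 2258 in 8a, the lowest sums of the region, and the hypothalamic genes to 40.5 and 79.4 CPM, against a median of 36.6. The part of these differences in the level of Tbr1 was not tested. The correlation of the log2 CPM of Tbr1 with the mean of the other 7 members was -0.31 over 8 ventral striatum libraries, 0.98 over 7 dorsal striatum libraries and 0.86 over 8 hypothalamus libraries, with 7b, 2b and 8f as the high points of the last 2. In the ventral striatum it was -0.26 for Neurod6, 0.58 for Slc17a7 and 0.04 to 0.12 for the other 5 members. For Rorb it was 0.12, -0.14 and 0.13 in the same order of regions.

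Of the 10 genes whose log2 CPM was most like the mean of the 8 members over the 7 dorsal striatum libraries, those reported here were Cck (Pearson r = 0.98), Npdc1, Nptx1, Pter, Ntng2, Rap1gap2, Cacna1g, Ipcef1 and Nptxr (0.97), among 9742 genes with a mean of at least 5 CPM there. These points share 1 library with a high value, 7b. Without 7b none of these genes stayed among the 10 most alike, but each kept an r of at least 0.89 over the 6 left. Among those 6, 2b had the highest member mean. Cck, a neuropeptide of cortical excitatory and some inhibitory neurons, was 28.1 CPM in 7b and 12.2 in 2b against at most 3.26 in the other 5, and 35.9 in 8f against a median of 18.0 in the other hypothalamus libraries. Over all 28 libraries, where the difference between regions sets the values, the 10 most alike included Scube1 (0.98), Mical2, Lingo1, Stx1a, Slc30a3, Asap1, Vxn, Dkkl1 and Tshz3 (0.96). Slc30a3, the zinc transporter of glutamatergic synaptic vesicles, was 179 CPM on average in the motor cortex, 16.1 in 7b, 3.17 in 2b and 45.3 in 8f, against at most 2.44 in the other 5 dorsal striatum libraries.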

How the data were processed

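RNA from the dorsal striatum, ventral striatum, hypothalamus and motor cortex was amplified and sequenced as single-end reads. The authors trimmed reads (Trimmomatic 0.32), removed ribosomal reads (Bowtie2 2.2.3), aligned the rest to GRCm38 (STAR 2.3.1z8) and counted reads on exons (HTSeq 0.6.1p1, union mode), and the deposited values are raw counts per gene for each of 28 libraries. The strand setting is not given in the sources used here. Rows of reads that met no gene were left out of library sizes. These reads were 9.57% to 19.1% of all reads tallied.

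Symbols and positions were taken from GENCODE M21 (GRCm38), which named 28758 of 29878 genes, and promoters from RefSeq (GRCm38.p6). No member shares exon bases with another gene. Genes above 1 CPM in at least 2 of 28 libraries (14979) were fitted in 1 model of 12 groups with TMM factors, glmFit and glmLRT (edgeR 4.0.16, R 4.3.3). Benjamini-Hochberg adjustment ran over all genes tested, and a call was made at an adjusted p under 0.05. The quasi-likelihood test and DESeq2 1.42.0 were alternatives, as were other scalings, filters, libraries, a mouse block and a covariate. Log2 CPM used a prior count of 2. The test was checked on simulated counts. Genes were named by a rule: the 8 members, counts and up to 4 examples of each list, the 10 genes most like the members in each set of libraries, and Hdc. A gene that this rule would name is not reported here. Promoter windows were 250 bases.

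The members, lists and tests were chosen with earlier results of these data known. The libraries 7b, 2b and 8f were left out together in an alternative chosen after seeing the data. Over 21 pairs of libraries of the same group, a chi-square test of their counts gave 1.78 to 13.3 per degree of freedom. These values were above sampling noise, so no pair was counted as the same library deposited again. They cannot tell separate animals from separate libraries of the same RNA sample.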

Additional observations from a re-analysis of the deposited data

Results flagged for a closer look

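Among 32 pairs of a member and a region, 6 had a library whose gap to its nearest neighbour, as a share of the range of log2 CPM, passed the critical value of Dixon's test for its number of libraries. Chance gives about 1 such case in 20, a rate that does not apply to the 3 cases of Emx1, where 1 library alone held reads. In the hypothalamus, 8f was far above the other 7 libraries in Tbr1 (gap 0.672 of the range), Neurod6 (0.733) and Neurod2 (0.654). Emx1 gave a gap of 1 in the dorsal striatum (7b), the ventral striatum (4a) and the hypothalamus (8f), since every other library of the region had no counts. The count in 4a was 1 read, while 7b and 8f had 3 counts each. In Slc17a7, Tbr1, Neurod6 and Neurod2 in the dorsal striatum, 7b and 2b lay apart from the others together, so that neither passed this test. Neither passed it in Cux2, Rorb or Fezf2 either.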

How the results depend on the processing

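All 496 log2 fold changes of the motor cortex against another region kept their direction and call under every alternative that gave a value, between 0.29 and 9.16, and the 8 members were called in each of these 3 comparisons throughout. These include the fit without 7b, 2b and 8f. Those libraries had high member values, so leaving them out could only widen the difference for the members raised in them. Of 319 recomputed counts of members called, 291 were within 1.5 times the value reported. KO against het in the dorsal striatum (3 called) gave 0 with DESeq2, 0 with the quasi-likelihood test, 0 without 7b, 2b and 8f, and 0 to 4 when 1 library at a time was left out (0 without 5b or 7b, 1 without 4b). KO against het in the hypothalamus (1 called) gave 0 with DESeq2, with the quasi-likelihood test and without the 3 libraries, 2 with no filter or with only the libraries of that region, and 0 to 3 with 1 library left out (0 without 4f, 5f, 6f or 8f, 3 without 7f). KO against WT in the hypothalamus (0 called) gave 2 with no filter, 2 with only that region and 3 without 7f, range 0 to 3. KO against WT in the motor cortex (0) gave 1 with only that region. KO against WT in the dorsal striatum (0) gave 0 to 1, and its difference from the hypothalamus (0) gave 0 to 3, the highest without 7b in both. The dorsal against the ventral striatum (5) gave 2 without the 3 libraries and 3 to 5 with 1 library left out (3 without 2b). The dorsal striatum against the hypothalamus (2) gave 5 without the 3 libraries and 2 to 5 with 1 left out (5 without 2b, 4 without 7b or 8f). Log2 fold changes of KO against WT in the dorsal striatum changed sign as follows. Fezf2 was 0.29 by library size alone, 0.010 with no filter and 0.034 with the quasi-likelihood test. With the member covariate, which holds the members' own values, Slc17a7 was -1.15, Tbr1 -0.22 and Neurod2 -0.36. Without the 3 libraries Slc17a7 was -1.07, Rorb -0.21 and Emx1 0 (no counts). With 1 library left out, Slc17a7 ran from -4.02 to 4.52, Tbr1 from -2.36 to 4.32, Neurod6 from -1.34 to 4.91, Neurod2 from -1.97 to 8.11 and Emx1 from 0 to 4.67, the lowest without 7b, and Fezf2 ran from -1.78 to 0.79 (0.72 without 8b) and Rorb from -0.15 (without 2b; -0.0091 without 7b) to 0.27. The cause was not tested. The mouse number of the library names as a replicate block changed no call (5 members between the dorsal and ventral striatum, 2 between the dorsal striatum and hypothalamus, 6 between the ventral striatum and hypothalamus and 8 in each motor cortex comparison). Over 34 pairs of libraries with the same number, deviations from the group mean correlated between -0.08 and 0.086, and no pair was over 0.1. Such correlations cannot tell whether libraries with the same number came from 1 mouse. In a group of 2 libraries the deviations are mirror images of each other. Depth limits Emx1, with at most 3 counts in any region outside the motor cortex.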
